A study of Mus musculus with 24 samples.

Results

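Phosphatidylserine, phosphatidylinositol and cardiolipin are the anionic phospholipids of mammalian membranes. The 10 genes described here encode enzymes of their synthesis and conversion: PTDSS1, PTDSS2, PISD, CDS1, CDS2, CDIPT, PGS1, PTPMT1, CRLS1 and TAZ (tafazzin). They were chosen by name from textbook pathways, with earlier results of these data known, and are spelled as in the deposited table. They are 10 of 35727 genes listed, and all 10 had enough counts to be among the 15259 genes tested.

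The pathway has 2 entry points. PTDSS1 and PTDSS2 swap the head group of phosphatidylcholine or phosphatidylethanolamine for serine, and mitochondrial PISD decarboxylates phosphatidylserine to phosphatidylethanolamine. CDS1 and CDS2 activate phosphatidic acid as CDP-diacylglycerol, which CDIPT joins to inositol in the endoplasmic reticulum. In mitochondria, PGS1 joins CDP-diacylglycerol to glycerol phosphate, PTPMT1 removes the phosphate to give phosphatidylglycerol, CRLS1 condenses it to cardiolipin, and tafazzin remodels cardiolipin's acyl chains. Cardiolipin is the signature lipid of the inner mitochondrial membrane, and in fat tissue it is abundant in mitochondria-rich brown and beige fat cells.

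RNA was sequenced from inguinal white adipose tissue (iWAT), a subcutaneous fat depot, of male mice aged 18 to 22 weeks. The mice were labelled WT or KO, and the series names the KO as AdL3KO with LPCAT3 deleted. LPCAT3 is an acyltransferase that places polyunsaturated fatty acids on lysophospholipids. All mice ate high-fat diets with 60% of calories from fat, enriched in saturated (SFA), omega-6 (n6) or omega-3 (n3) fatty acids. Each genotype on each diet gave 4 libraries, 24 in all in 6 groups. The title speaks of mature adipocytes, but the protocols describe no isolation of fat cells, so the libraries are read as whole tissue. The sources used here do not give the construct or the Cre driver. The labels do not say that each library came from its own animal, so p-values measure only the spread between libraries.

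Levels are CPM, counts scaled to library size with TMM factors, unless TPM, an abundance scaled by transcript length, is named. Differences are log2 fold changes ± SE from edgeR's quasi-likelihood test, and a gene is called when its Benjamini-Hochberg adjusted p over all tested genes is under 0.05. Libraries held 43.6 to 62.1 M estimated counts, with a median of 50.2 M. LPCAT3 was lower in KO on all diets, at 116.8 ± 13.5 CPM in WT and 75.4 ± 4.32 in KO on SFA (SD, n = 4), 69.6 ± 2.83 and 49.0 ± 0.994 on n6, and 114 ± 3.13 and 58.2 ± 3.22 on n3. Each of these falls was called, and no KO library was as high as a WT library of its diet. In TPM the same gene was lower in KO only on n3 (102 ± 4.92 in WT and 80.2 ± 8.32 in KO), and stood at 101 ± 10.96 and 106 ± 5.37 on SFA and at 69.5 ± 5.06 and 74.3 ± 4.00 on n6. Replicate 4 of KO on n3 stood apart: without it, the genes whose genotype difference varied with diet went from 983 to 2525. Among the KO libraries on n3, it had the lowest summed level of adipocyte markers (23649 CPM, others 26284 to 31343) and the highest of endothelial markers (1016 CPM, others 678 to 773). Replicate 3 of WT on SFA, replicate 2 of KO on SFA and replicates 1 and 2 of KO on n6 were high in B cell or muscle markers (the 4 marker-high libraries below). The part of these markers in the results was not tested beyond fits that leave those libraries out or take B cell, muscle and gland marker levels as covariates.

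Per unit of length, the phosphatidylinositol synthase CDIPT had the highest level of the 9 members with a matched TPM and CDS1 the lowest. Means of the 6 group means ran from 57.6 TPM for CDIPT through 45.3 for PISD, 36.5 for TAZ, 35.3 for CRLS1, 34.2 for CDS2, 32.5 for PTDSS1, 29.2 for PGS1 and 23.5 for PTDSS2 to 16.7 for CDS1. CDIPT was above PISD, PISD above TAZ, PGS1 above PTDSS2 and PTDSS2 above CDS1 in 24 of 24 libraries. The middle of the order was not resolved: TAZ was above CRLS1 in 16 libraries, CRLS1 above CDS2 in 14 and CDS2 above PTDSS1 in 16. No TPM was matched to PTPMT1, which had 18.1 to 28.9 CPM over the 24 libraries.

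On GRCm38 with GENCODE M21 annotation, the serine branch lies at chr13:66932830-66998401 (PTDSS1, plus strand), chr7:141122382-141157606 (PTDSS2, plus) and chr5:32736301-32785646 (PISD, minus). CDS1 lies at chr5:101765130-101823858, CDS2 at chr2:132263148-132312050 and CDIPT at chr7:126975914-126980501, all on the plus strand. Of the mitochondrial branch, PGS1 lies at chr11:117986292-118024011 (plus), PTPMT1 at chr2:90908716-90918258 (minus), CRLS1 at chr2:132846666-132866785 (plus) and TAZ at chrX:74281912-74290151 (plus). CDS2 and CRLS1 lie on the same strand of chromosome 2, and M21 annotates PTPMT1 as a processed transcript and the other members as protein-coding genes.

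Averaged over diets, 8 of the 10 members differed between KO and WT in the counts, 7 of them higher and 1 lower in KO. Of 9 members with TPM, described further on, 2 were called higher and 5 lower, where most calls over all genes were lower. By the counts CRLS1, the cardiolipin synthase, was 1.26-fold higher, PTPMT1 1.19-fold and CDS1 1.18-fold, while CDS2 was 0.866-fold of WT. The genotype changed much of the transcriptome: 57.6% of all tested genes were called in this comparison, 27.8% higher and 29.8% lower. The members' count is therefore read against a background in which most genes were called. The median difference was 0.12 over the members and -0.01 over all tested genes. On SFA only 2 members were called, against 39.9% of all genes, with 1 higher (20% of all genes) and 1 lower (19.9%). On n6 8 were called against 43.1% (7 higher against 21%, 1 lower against 22.1%), and on n3 8 against 38.8% (7 higher against 20.1%, 1 lower against 18.7%). The members' medians were 0.08 on SFA, 0.14 on n6 and 0.17 on n3. WT and KO libraries did not overlap for 2 members on SFA, 7 on n6 and 8 on n3, where 36.1%, 39.1% and 32.7% of all genes did not overlap.

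**Figure D1:**
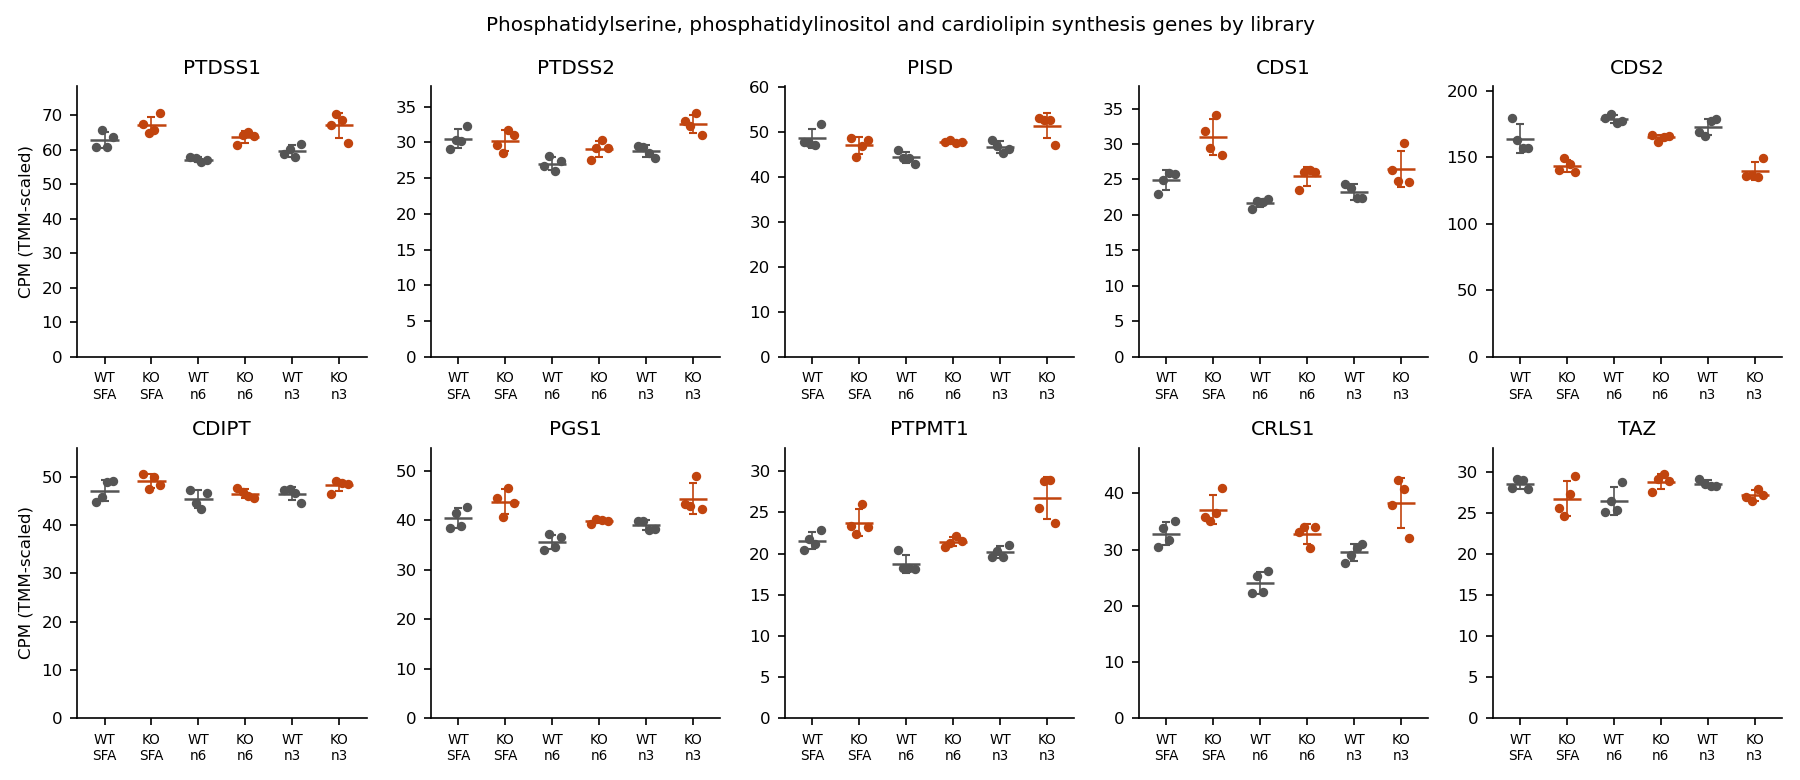
CPM (TMM-scaled, axis from 0) of each of the 10 members in every library, by genotype and diet. The lines mark group means and the points single libraries. In these counts CDS1 (not on n3 in TPM), CRLS1 and PTPMT1 sit higher in KO and CDS2 lower. CDIPT overlaps between genotypes on every diet, and TAZ overlaps on SFA and n6 and lies lower in KO on n3.

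In the counts both phosphatidylserine synthases were called higher in KO on n3 and on average and neither was called on SFA, and for neither was a dependence on diet called (interaction adjusted p = 0.558 for PTDSS1 and 0.102 for PTDSS2). PTDSS1, which uses phosphatidylcholine, had 60.7, 65.6, 60.8 and 63.8 CPM in WT and 67.4, 64.7, 65.6 and 70.5 in KO on SFA (replicates 1 to 4 here and below). On n6 it had 57.8, 57.5, 56.4 and 56.9 in WT and 61.2, 64.3, 65.2 and 64.01 in KO. On n3 it had 58.8, 60.3, 57.8 and 61.5 in WT and 67.1, 70.4, 68.5 and 61.98 in KO. Every KO library was above every WT library on n6 and n3, with replicate 4 of KO on n3 nearest to WT, and the groups overlapped on SFA. In the counts PTDSS1 was higher in KO by 0.14 ± 0.022 on average (adjusted p = 8.24e-06; -0.05 in TPM), 0.16 ± 0.0382 on n6 (adjusted p = 0.00187) and 0.17 ± 0.0381 on n3 (adjusted p = 0.00126). Its difference on SFA, 0.10 ± 0.038, narrowly missed the threshold (adjusted p = 0.0502).

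PTDSS2, which uses phosphatidylethanolamine, ranged from 29.1 to 32.4 CPM in WT and 28.5 to 31.8 in KO on SFA, with the groups fully overlapping. On n6 it ranged from 26.003 to 28.05 in WT and 27.6 to 30.3 in KO, and on n3 from 27.8 to 29.6 and 31.03 to 34.04, where the groups were apart. It was called higher on n3, by 0.18 ± 0.0425 (adjusted p = 0.00196), and on average, by 0.09 ± 0.0246 (adjusted p = 0.00302; -0.07 in TPM). In TPM it had 25.4 ± 1.89 in WT and 21.97 ± 1.29 in KO on SFA and 24.4 ± 2.86 and 23.6 ± 3.48 on n3 (SD, n = 4). On n6 its difference was 0.10 ± 0.0427 (adjusted p = 0.0514), and on SFA it was -0.01 ± 0.0424.

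PISD, the mitochondrial decarboxylase, stood at 47.2 CPM in replicate 4 of KO on n3 and at 52.6 to 53.0 in the other KO libraries of that diet, against 45.2 to 48.2 in WT. It was higher in KO by 0.14 ± 0.0398 on n3 (adjusted p = 0.00746), 0.11 ± 0.0399 on n6 (adjusted p = 0.0315) and 0.07 ± 0.023 on average (adjusted p = 0.015; -0.16 in TPM), with -0.05 ± 0.0397 on SFA. Its n3 difference without replicate 4 of KO was 0.18 (adjusted p = 0.000494). The call for PISD on n6 was lost without WT replicate 4 of that diet (adjusted p = 0.0739) or any of KO replicates 1, 2 and 4 (0.0567, 0.0662 and 0.0529), and without those 4 marker-high libraries (0.125). The table also lists 2 PISD pseudogenes, PISD.PS1 at about 4 CPM and PISD.PS2 at about 1 CPM, and reads of near-identical sequence could be split among them. Neither pseudogene was called in any comparison of genotypes in the counts. Per unit of length PISD.PS1 stood closer to PISD. Its group means ran from 9.53 TPM (KO on SFA) to 14.98 (WT on n3), and those of PISD from 39.98 (KO on SFA) to 49.4 (WT on n6). The mean of PISD.PS1 was lower in KO on each diet, with overlapping libraries, and its part in the PISD values was not tested.

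The CDP-diacylglycerol synthases moved in opposite directions in the counts on every diet. CDS1, the less abundant, had 23.003, 24.99, 25.97 and 25.8 CPM in WT and 31.8, 29.5, 34.05 and 28.4 in KO on SFA. On n6 it had 20.9, 21.9, 21.8 and 22.3 in WT and 23.5, 26.04, 26.3 and 26.02 in KO. On n3 it had 24.4, 23.8, 22.3 and 22.4 in WT and 26.3, 24.7, 30.1 and 24.7 in KO. All KO libraries were above all WT libraries of their diet, by a narrow margin on n3. CDS1 rose on average by 0.24 ± 0.0362 (adjusted p = 4.09e-06). By diet its rise was 0.31 ± 0.0622 for SFA (adjusted p = 0.00032), 0.23 ± 0.063 for n6 (adjusted p = 0.00509) and 0.19 ± 0.0628 for n3 (adjusted p = 0.0219). The call for CDS1 on n3 was lost without replicate 3 of KO (0.12, adjusted p = 0.134), replicate 3 of WT (adjusted p = 0.0952) or replicate 4 of WT (adjusted p = 0.0858) of that diet. In TPM the CDS1 value on n3 was also -0.03, with 16.1 ± 1.69 TPM in WT and 15.7 ± 0.886 in KO.

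CDS2, the more abundant, had 179.9, 163, 157 and 157 CPM in WT and 141, 149, 145 and 139 in KO on SFA. On n6 it had 179.9, 183, 176 and 178 in WT and 167, 162, 165 and 166 in KO. On n3 it had 169, 166, 177 and 179 in WT and 136, 137, 135 and 149.6 in KO. All KO libraries were below all WT libraries of their diet, with the widest gap on n3 even though replicate 4 of KO was the KO library closest to WT. CDS2 differed on average by -0.21 ± 0.0239 (adjusted p = 9.17e-08). By diet its difference was -0.19 ± 0.0415 for SFA (adjusted p = 0.00067), -0.12 ± 0.0414 for n6 (adjusted p = 0.0252) and -0.31 ± 0.0415 for n3 (adjusted p = 3.32e-06). The CDS2 value on n3 was -0.35 without that library. The CDS2 call on n6 was lost without WT replicate 1 (adjusted p = 0.0637), WT replicate 2 (0.0805) or KO replicate 2 (0.065), and without those 4 marker-high libraries (0.108).

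As a share of the summed TPM of both synthases, CDS1 made up 30.5% ± 1.81 in WT and 41.0% ± 1.59 in KO on SFA (SD, n = 4). The share was 26.3% ± 0.854 and 34.4% ± 1.16 on n6, and 29.7% ± 1.69 and 37.6% ± 2.57 on n3. No KO share was as low as a WT share of the same diet, and the differences were 10.5, 8.12 and 7.96 percentage points. An exact two-sided permutation test gave p = 0.0286 on each diet, the smallest that 4 against 4 libraries allow, and 0.0571 after adjustment over the 6 shares tested. The equivalent share of PTDSS1 in PTDSS1 plus PTDSS2 was 56.6% in WT and 59.1% in KO on SFA, with 60.1% and 59.0% for n6 and 57.2% and 57.0% for n3, and the exact permutation p were 0.171, 0.4 and 0.943.

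**Figure D2:**
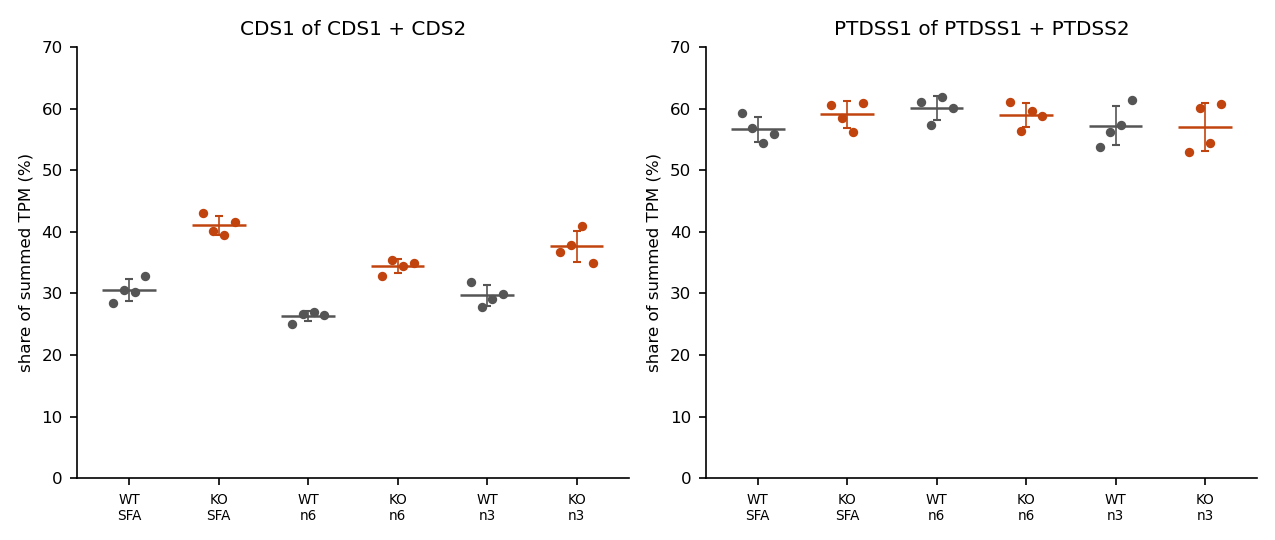
Share (%) of summed TPM taken by CDS1 within CDS1 plus CDS2 (left) and by PTDSS1 within PTDSS1 plus PTDSS2 (right), one point per library with lines at group means. The CDS1 share lies between 25.05% and 32.9% in WT and between 32.8% and 43.0% in KO, while the PTDSS1 share overlaps between genotypes on every diet.

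Because CDS1 and CDS2 diverged, the 250 bases before their start sites are shown (RefSeq, GRCm38.p6, plus strand), at chr5:101764880-101765129 and chr2:132262898-132263147. Neither window overlaps an annotated exon. Capitals mark matches to the GC box GGGCGG or the CCAAT box CCAAT on either strand.
CDS1: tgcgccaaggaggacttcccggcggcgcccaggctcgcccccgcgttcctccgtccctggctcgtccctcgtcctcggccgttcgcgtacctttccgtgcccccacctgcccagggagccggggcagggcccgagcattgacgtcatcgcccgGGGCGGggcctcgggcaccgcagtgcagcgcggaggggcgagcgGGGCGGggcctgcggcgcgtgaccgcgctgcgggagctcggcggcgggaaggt
CDS2: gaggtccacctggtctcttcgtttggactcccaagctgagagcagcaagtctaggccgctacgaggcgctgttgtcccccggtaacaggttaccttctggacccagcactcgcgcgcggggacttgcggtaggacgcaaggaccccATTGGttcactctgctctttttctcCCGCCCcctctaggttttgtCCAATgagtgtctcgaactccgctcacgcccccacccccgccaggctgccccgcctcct
The CDS1 window is 77.6% G and C and holds 2 GC boxes, starting 97 and 53 bases before the start site. RefSeq has 1 window for CDS1 and 2 for CDS2. The CDS2 window shown, at the first start, is 62.4% G and C and holds 1 GC box, at 79 bases, and 2 CCAAT boxes, at 104 and 59 bases. Its other window, at chr2:132285689-132285938 inside the gene, is 50.4% G and C and holds 3 CCAAT boxes and no GC box. Among 32841 promoter windows of this length, 32.7% hold a GC box and 33.9% a CCAAT box, so both matches are common.

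CDIPT, the only enzyme here that makes phosphatidylinositol, was not called on any diet in the counts and was called lower in TPM. It ranged from 44.8 to 49.2 CPM in WT and 47.5 to 50.6 in KO on SFA, 43.3 to 47.3 and 45.6 to 47.7 on n6, and 44.6 to 47.4 and 46.5 to 49.1 on n3, with overlap on each diet. Its average difference was 0.05 ± 0.0212 (adjusted p = 0.0586), and DESeq2 called it higher at 0.06 (adjusted p = 0.0256). In TPM CDIPT went the other way, by limma -0.12 ± 0.0248 on average (adjusted p = 0.000161), -0.11 on SFA (adjusted p = 0.0391), -0.14 on n6 (adjusted p = 0.00656) and -0.11 on n3 (adjusted p = 0.0342), and without the filter on low values the SFA and n3 calls were lost (0.0597 and 0.0523). Its TPM were 59.3 ± 1.99 in WT and 54.9 ± 1.46 in KO on SFA (SD, n = 4). The overlapping antisense transcript CDIPTOS was at about 0.6 CPM and was not called.

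The mitochondrial branch from PGS1 to CRLS1 was higher in KO at each of its 3 synthetic steps on average in the counts, with PGS1 at -0.04 in TPM, while the remodelling enzyme tafazzin was not called there and was called lower in TPM. PGS1, which commits CDP-diacylglycerol to phosphatidylglycerol, ranged from 38.5 to 42.7 CPM in WT and 40.6 to 46.5 in KO on SFA, where groups overlapped. It ranged from 34.1 to 37.2 and 39.3 to 40.2 on n6, and from 38.1 to 39.8 and 42.2 to 49.0 on n3, where they did not. PGS1 rose by 0.16 ± 0.0274 on average (adjusted p = 3.69e-05), 0.16 ± 0.0476 on n6 (adjusted p = 0.00812) and 0.19 ± 0.0474 on n3 (adjusted p = 0.00338), with 0.12 ± 0.0473 on SFA (adjusted p = 0.0529).

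PTPMT1, the phosphatidylglycerophosphate phosphatase, had 20.4, 21.8, 21.2 and 22.8 CPM in WT and 23.4, 22.3, 26.1 and 23.3 in KO on SFA. On n6 it had 20.4, 18.2, 18.3 and 18.1 in WT and 20.8, 21.3, 22.1 and 21.5 in KO. On n3 it had 19.6, 20.4, 19.6 and 21.1 in WT and 25.5, 28.8, 28.9 and 23.7 in KO. Groups overlapped on SFA through replicate 2 of KO and replicate 4 of WT, and were apart on n6 and n3. PTPMT1 rose by 0.19 ± 0.0606 on n6 (adjusted p = 0.0129), 0.41 ± 0.06 on n3 (adjusted p = 1.18e-05) and 0.25 ± 0.0347 on average (adjusted p = 1.77e-06), with 0.14 ± 0.0599 on SFA (adjusted p = 0.0651).

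CRLS1 had 30.5, 33.9, 31.7 and 35.1 CPM in WT and 35.9, 35.1, 36.5 and 41.0 in KO on SFA. On n6 it had 22.3, 25.4, 22.4 and 26.2 in WT and 33.1, 33.9, 30.3 and 33.99 in KO. On n3 it had 27.6, 28.99, 30.4 and 31.1 in WT and 38.0, 42.3, 40.7 and 32.1 in KO. The groups overlapped slightly on SFA and were apart on n6 and n3, with replicate 4 of KO on n3 just above WT. CRLS1 rose by 0.45 ± 0.0746 on n6 (adjusted p = 3.55e-05), 0.37 ± 0.0737 on n3 (adjusted p = 0.000336) and 0.33 ± 0.0426 on average (adjusted p = 4.38e-07), with 0.18 ± 0.0733 on SFA (adjusted p = 0.0563). Its difference on n3 was 0.45 without that library.

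The 250 bases before the first of 2 CRLS1 start sites, at chr2:132846416-132846665 (RefSeq, GRCm38.p6, plus strand), are shown because CRLS1 had the largest average difference of the 10 members. They overlap an exon of the antisense transcript Gm14104, and capitals mark an E-box, CACGTG.
CRLS1: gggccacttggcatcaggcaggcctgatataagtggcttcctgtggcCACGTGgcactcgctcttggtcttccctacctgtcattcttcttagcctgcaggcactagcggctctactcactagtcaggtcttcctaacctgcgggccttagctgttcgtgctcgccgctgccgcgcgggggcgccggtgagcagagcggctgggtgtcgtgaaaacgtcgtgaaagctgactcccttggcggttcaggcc
The E-box starts 203 bases before the start site, and 6.02% of the 32841 windows hold one. No other member window of the 11 had this match. Both strands were also searched for the sterol regulatory element TCACNCCAC (1.05% of all windows), the NRF1 site (3.74%) and the ERR site TCAAGGTCA (0.387%). The NRF1 site was found in 1 member window, that of PGS1, and the sterol and ERR letters in 0 of 11.

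TAZ, the cardiolipin remodelling enzyme, had no average difference past the threshold (-0.01 ± 0.0276, adjusted p = 0.667). On n6 it ranged from 25.1 to 28.9 CPM in WT and 27.5 to 29.7 in KO and was called higher by 0.12 ± 0.0478 (adjusted p = 0.0413). That call was lost without any 1 of WT replicates 1, 2 and 3 or KO replicates 2, 3 and 4 of n6, with adjusted p between 0.0546 and 0.107. On n3 all KO libraries (26.5 to 27.99 CPM) lay below all WT libraries (28.2 to 29.2), but the difference of -0.07 ± 0.0478 was not called. On SFA it was -0.09 ± 0.0477, and without replicate 4 of KO, the KO library highest in TAZ, it was -0.14 (adjusted p = 0.0153). In TPM, TAZ was called lower in KO by limma, at -0.24 ± 0.0447 on average (adjusted p = 6.46e-05), -0.33 on SFA (adjusted p = 0.00123) and -0.32 on n3 (adjusted p = 0.00139), and stood at -0.05 on n6, where the counts had called it higher. Its TPM on SFA were 38.9 ± 2.46 in WT and 30.7 ± 2.79 in KO, those on n6 were 39.9 ± 2.72 and 38.4 ± 2.02, and those on n3 were 39.6 ± 1.93 and 31.7 ± 4.33 (SD, n = 4).

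**Figure D3:**
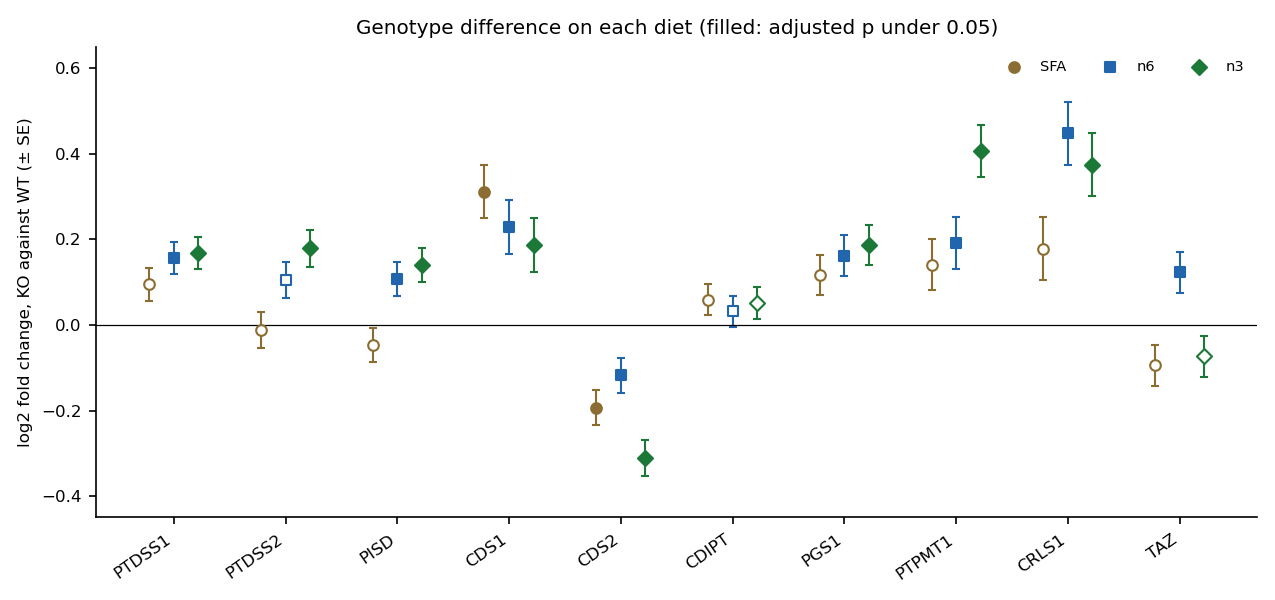
Log2 fold change of KO against WT for the 10 members on SFA, n6 and n3, with bars of ± SE and filled symbols for adjusted p under 0.05 (edgeR). CDS1 is above 0 and CDS2 below 0 on all 3 diets, and the open symbols on SFA for PTDSS1, PGS1, PTPMT1 and CRLS1 sit at 0.10 to 0.18.

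The count on SFA varied with the threshold and the fit. By edgeR 2 members were called there, against 39.9% of all genes, and 6 had an unadjusted p under 0.05, while DESeq2 called 5 (CDS1, CDS2, CRLS1, PGS1 and PTDSS1). The share of all genes at the unadjusted cut was not computed, so the 6 are not read as a result about the members. The edgeR count became 4 without replicate 2 of KO on n3, 5 without replicate 4 of WT on SFA, and 6 without replicate 2 of KO on SFA or without replicate 4 of KO on n3. On n6 the count of 8 became 5 without replicate 2 of KO. On n3 it was 7 or 8 whichever library was left out, and on average 8 or 9. Calls over all genes in these other fits are not given for these comparisons. Their counts are therefore not read as results about the members.

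The direction of the smaller differences depended on the unit. TPM values were lower in KO for most genes, with a median of all genes of -0.18 on log2(TPM + 1) by limma for the average over diets, where 1267 genes were called higher and 8610 lower. In those TPM, CDS1 (0.16) and CRLS1 (0.15) were still called higher and CDS2 lower (-0.40), whereas PTDSS1 (-0.05), PISD (-0.16), TAZ (-0.24) and CDIPT (-0.12) were called lower and PTDSS2 (-0.07) and PGS1 (-0.04) were not called. Relative to the median gene of each library, a setting added after seeing the data, 3618 genes were called higher and 3701 lower. On that scale CDS1 (0.34), CRLS1 (0.33), PGS1 (0.14), PTDSS1 (0.13) and CDIPT (0.06) were called higher and CDS2 (-0.22) lower, and PTDSS2 (0.11), PISD (0.02) and TAZ (-0.06) were not called. Directions given for PTDSS1, PTDSS2, PISD, PGS1 and CDIPT thus hold relative to other genes in the counts and turn over in unadjusted TPM.

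**Figure D4:**
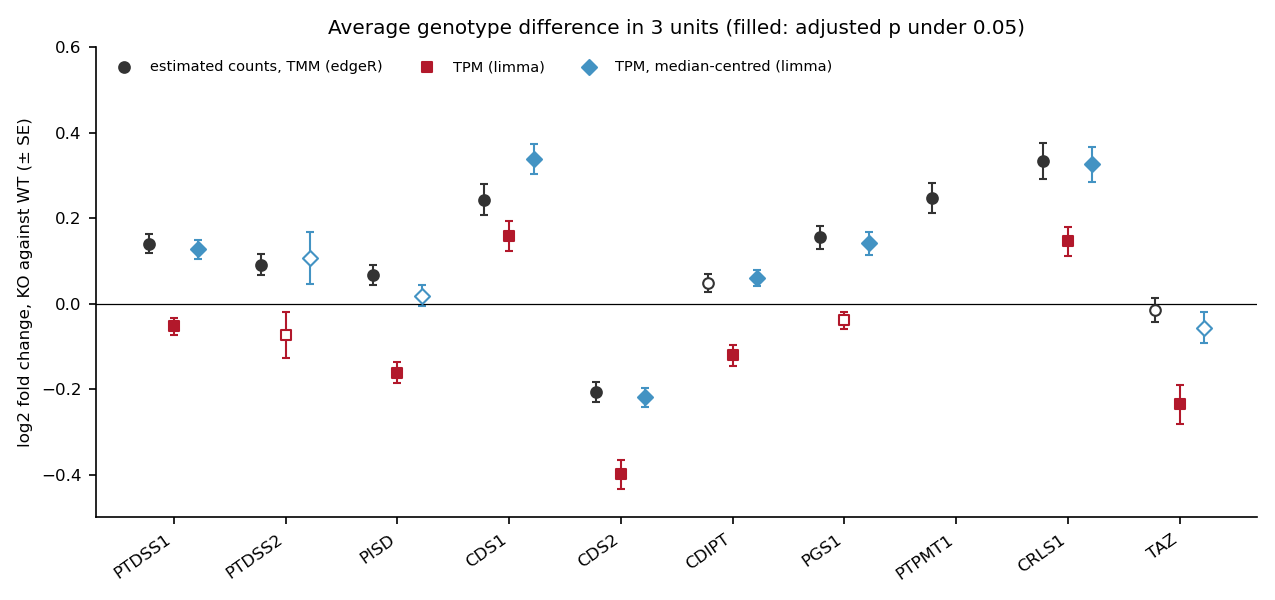
Average log2 fold change of KO against WT (± SE) for each member in estimated counts with TMM scaling, in TPM and in TPM relative to the median gene, with filled symbols for adjusted p under 0.05; PTPMT1 has no TPM. CDS1 and CRLS1 are above 0 and CDS2 below 0 in all 3, while PTDSS1, PTDSS2, PISD, PGS1 and CDIPT are below 0 in TPM only.

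Markers of several cell types moved with genotype. The summed level of 8 macrophage markers was 1120 to 1266 CPM in WT and 666 to 890 in KO on SFA, 1139 to 1685 and 865 to 1183 on n6, and 1122 to 1371 and 870 to 1172 on n3, and all 8 were called lower on average. Of 7 stromal markers 5 were called lower on average, with sums of 2545 to 2656 CPM in WT and 1473 to 2105 in KO on SFA. Their sums were 2604 to 2999 and 1972 to 2336 on n6, and 2418 to 2752 and 2090 to 2683 on n3, where the groups overlapped. Brown and beige fat markers were higher in KO, with 4 of 5 called and sums of 23.3 to 40.3 and 63.3 to 76.4 CPM on SFA, 12.3 to 20.3 and 54.8 to 64.4 on n6, and 29.9 to 37.2 and 60.2 to 83.0 on n3. Of 7 adipocyte markers 3 were called higher and 2 lower on average: FABP4 rose by 0.36 ± 0.0414, PNPLA2 by 0.37 ± 0.052 and PLIN1 by 0.12 ± 0.0376, and LEP fell by 0.68 (SE 0.0442) and ADIPOQ by 0.35 (SE 0.0457). Their sums, 22292.5 to 27266 CPM in WT and 23284 to 31343 in KO, add up these opposite changes and overlapped. On n6 5 of 7 B cell markers and 6 of 6 T cell markers were called higher in KO, with sums of 2.43 to 3.14 CPM in WT and 4.53 to 44.2 in KO and of 5.84 to 7.42 and 6.57 to 21.8. Skeletal muscle markers summed to 16.2 to 331 CPM in KO on n6 and to between 12.3 and 81.5 CPM in libraries of the other groups, and 4 of 9 were called higher and 1 lower on average. Endothelial markers summed to 685 to 889 CPM in WT and 817 to 1142 in KO on SFA (3 of 5 called higher), 918 to 1042 and 1148 to 1223 on n6 (1 called higher, groups apart) and 808 to 1104 and 678 to 1016 on n3 (3 called lower). Gland markers were low, at most 6.73 CPM with up to 4 of 7 at 0, and 6 of 6 tested were called higher on average (median 2.04), with 4 on n3, where sums of 0.579 to 0.777 CPM in WT and 1.77 to 5.19 in KO were apart. In bulk tissue, fewer cells of a type and less RNA per cell cannot be told apart, and the part of macrophage, stromal, fat cell, endothelial and T cell markers in the members' differences was not tested. A fit with B cell, muscle and gland marker levels as covariates called 7 members on average and not PISD (0.06, adjusted p = 0.0785). Calls over all genes on average in that fit are not given here, so the 7 are not read as a result about the members.

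Diet differences of the members were called mainly in contrasts with n6. In WT, 8 members were called between n6 and SFA, 1 higher and 7 lower on n6, where 24.7% of all genes were called (11.6% higher, 13.1% lower). CRLS1 fell by 0.45 (SE 0.0743, adjusted p = 0.000205), the largest of these, from 32.8 ± 2.08 to 24.1 ± 1.98 CPM (SD, n = 4). PGS1 fell by 0.18 (adjusted p = 0.00799), PTPMT1 by 0.20 (adjusted p = 0.0183), CDS1 by 0.20 (adjusted p = 0.0236), PTDSS2 by 0.17 (adjusted p = 0.00474), PTDSS1 by 0.14 (adjusted p = 0.0126) and PISD by 0.13 (adjusted p = 0.0198). These 7 did not overlap between the diets, against 24.9% of all genes. CDS2 was higher on n6 by 0.12 ± 0.0414 (adjusted p = 0.0312), and CDIPT (-0.05) and TAZ (-0.11) were not called. Without replicate 4 of WT on SFA, 4 members were called in place of 8, with CDS1 (adjusted p = 0.0734), CDS2 (0.115), PISD (0.0995) and PTPMT1 (0.0735) past the threshold no longer. Calls over all genes in that fit are not given here, so this change is not read as a result about the members. In TPM the values of PTDSS1 and PISD turned to 0.03 and 0.07, uncalled, while CRLS1 (-0.26) and CDS2 (0.27) were called in the same directions. Those 2 were the only members called in TPM. WT mean TPM on SFA and n6 were 29.6 and 29.5 for PGS1, 15.6 and 15.4 for CDS1 and 25.4 and 22.5 for PTDSS2. In the same contrast 4 of 5 brown and beige fat markers were called lower on n6, 4 of 7 adipocyte markers lower and 1 higher, 3 of 8 macrophage markers and 2 of 5 endothelial markers higher and 2 of 7 B cell markers lower, and their part was not tested.

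In KO the same diet contrast called 3 members, 1 higher and 2 lower on n6, against 22.8% of all genes (8.92% higher, 13.8% lower). CDS1 fell by 0.28 (SE 0.0624, adjusted p = 0.00313), CDS2 rose by 0.20 ± 0.0415 (adjusted p = 0.00193) and PGS1 fell by 0.14 (SE 0.0475, adjusted p = 0.0421). CRLS1 stood at -0.18 ± 0.0736 (adjusted p = 0.0842). Libraries of the 2 diets did not overlap for 5 members (CDS1, CDS2, PGS1, CRLS1 and PTPMT1), against 22.2% of all genes. Without replicate 4 of KO on n3, whose spread enters the same fit, CRLS1 (adjusted p = 0.0398) and PTPMT1 (adjusted p = 0.0447) were called as well, making 5. That count is not read as a result about the members, since calls over all genes in that fit are not given here. PGS1 was no longer called without any 1 of KO replicates 1, 3 and 4 on SFA or any KO replicate on n6, with adjusted p between 0.0622 and 0.154. In TPM CDS1 was at -0.04 (adjusted p = 0.62) in this contrast, and CDS2 at 0.35 was called. Of the markers, 5 of 8 macrophage genes were called higher and 2 of 5 brown and beige fat genes lower on n6 in KO.

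Between n3 and n6 in WT, only CRLS1 was called, higher on n3 by 0.29 ± 0.0743 (adjusted p = 0.00765), against 18.4% of all genes (9.82% higher, 8.61% lower). Groups were apart for 4 members, against 23.1% of all genes. In KO, 5 members were called, 4 higher and 1 lower on n3, against 26% of all genes (15.8% higher, 10.3% lower), and 4 members were apart, against 18.5%. PTPMT1 rose by 0.32 ± 0.0603 (adjusted p = 0.00166), CRLS1 by 0.22 ± 0.0739 (adjusted p = 0.0316), PTDSS2 by 0.16 ± 0.0428 (adjusted p = 0.00823) and PGS1 by 0.16 ± 0.0476 (adjusted p = 0.0206), while CDS2 fell by 0.24 (SE 0.0416, adjusted p = 0.00116). With replicate 4 of KO on n3 left out, PISD (0.14, adjusted p = 0.00531) and PTDSS1 (0.11, adjusted p = 0.0232) joined them, making 7. Without replicate 1 of KO on n6 or replicate 3 of KO on n3, CRLS1 (adjusted p = 0.0587 and 0.111) and PGS1 (0.0521 and 0.116) were lost, leaving 3. The CRLS1 call was also lost without replicate 3 of KO on n6 (adjusted p = 0.0893) or replicates 1 (0.0555) or 2 (0.126) of KO on n3. With the 4 marker-high libraries left out 2 were called, and PTDSS2 (adjusted p = 0.106), PGS1 (0.0989) and CRLS1 (0.103) were not. Calls over all genes fell as well in that fit, as given in the closing section. Counts of members with libraries left out are therefore not read as results about the members. In TPM the value of CDS1 in this contrast was -0.21 and called (adjusted p = 0.016), where the counts gave 0.06. KO mean TPM on n6 and n3 were 28.5 and 28.99 for PGS1, 23.01 and 23.6 for PTDSS2 and 36.03 and 37.9 for CRLS1. Libraries of the diets overlapped in TPM for each of these, so their rises are given for the counts only. The means were 35.1 and 26.2 TPM for CDS2. For TAZ, uncalled in the counts (-0.09), they were 38.4 and 31.7 TPM. Markers called in KO on n3 against n6 were lower for 5 of 5 endothelial, 6 of 9 skeletal muscle and 2 of 6 T cell genes and higher for 1 of 5 brown and beige fat genes. In WT 4 of 5 brown and beige fat markers were called higher on n3 and 2 of 8 macrophage markers lower, and the part of these markers was not tested.

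Between n3 and SFA, edgeR called 0 members in WT and 0 in KO, against 0.144% and 1.46% of all genes. At an unadjusted p under 0.05 there were 0 in WT and 4 in KO, a cut at which the share of all genes was not computed. DESeq2 called 0 in WT and 1 in KO, CDS1 (-0.23, adjusted p = 0.0214), where it called 316 and 588 of all genes. No member's libraries were apart in either genotype, against 9.01% of all genes in WT and 5.81% in KO. With replicate 4 of KO on n3 left out, edgeR called PISD (0.17, adjusted p = 0.0119) and PTPMT1 (0.22, adjusted p = 0.0252) in KO. CDS1 was called there without replicate 3 of KO on n3 (-0.30, adjusted p = 0.0114), without replicate 4 of KO on SFA (-0.27, adjusted p = 0.0305) or without replicate 4 of WT on n6 (-0.24, adjusted p = 0.0497). Each genotype's diet contrasts share libraries, so their values are set side by side and not combined.

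**Figure D5:**
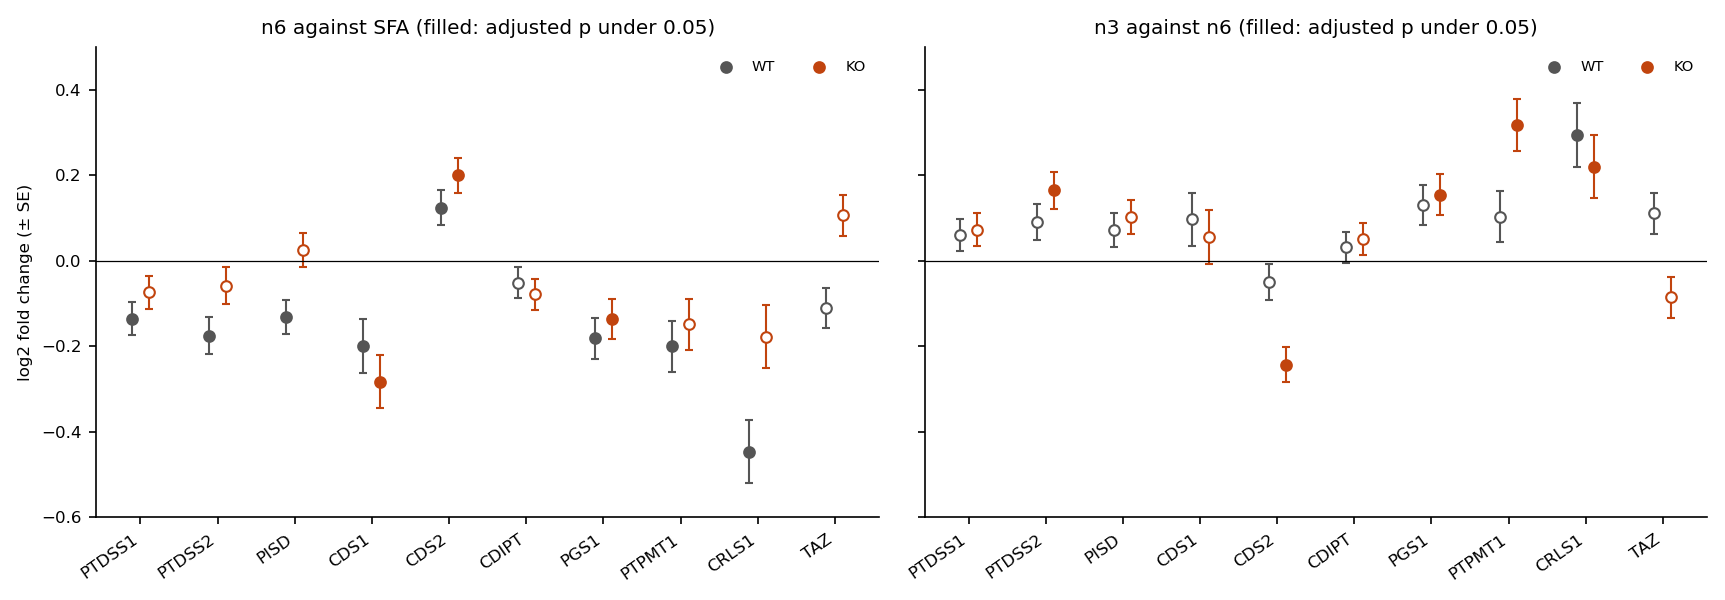
Log2 fold change (± SE) of each member for n6 against SFA (left) and n3 against n6 (right) in WT and KO, with filled symbols for adjusted p under 0.05 (edgeR). On the left CRLS1 in WT is lowest at -0.45, and CDS2 lies above 0 in both genotypes while the other 9 lie below 0 in WT, 7 of them filled.

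Whether the genotype difference itself depended on diet was tested with 1 F test per gene. By edgeR 0 of 10 members were called, against 6.44% of all genes. At an unadjusted p under 0.05 there were 6, and DESeq2 called 3 (CDS2, PISD and TAZ), where it called 1933 of all genes. The share of all genes at the unadjusted cut was not computed for this test or for the pairs of diets below. The smallest adjusted p were 0.0687 for PISD, 0.0699 for TAZ, 0.0898 for PTPMT1, 0.0902 for CDS2 and 0.102 for PTDSS2. Without replicate 4 of KO on n3, the calls of this F test over all genes went from 983 to 2525. In that fit 6 members were called: PISD (adjusted p = 0.00996), PTPMT1 (0.0151), CDS2 (0.0189), PTDSS2 (0.0443), CRLS1 (0.047) and TAZ (0.0488). Pairs of diets were planned only for members called in the F test, so their values here go beyond that plan. Of pairs of diets, the genotype difference between n3 and n6 called 1 member, CDS2, against 9.1% of all genes: its fall in KO was larger on n3 by 0.19 on the log2 scale (-0.19 ± 0.0586, adjusted p = 0.0412). In the same test 4 of 5 endothelial markers, 2 of 5 brown and beige fat markers and 2 of 6 T cell markers were called lower, and their part was not tested. Leaving out any 1 of 11 libraries lost that call, with adjusted p between 0.0528 and 0.0855: WT on n6 replicates 1 and 3, KO on n6 replicates 1 to 4, WT on n3 replicates 3 and 4 and KO on n3 replicates 1 to 3. Without replicate 4 of KO on n3 it was -0.23 (adjusted p = 0.00778), and PTPMT1 was also called at 0.27 (adjusted p = 0.0221). TAZ (-0.20, adjusted p = 0.0695) passed in this pair without replicate 2 of WT on SFA (adjusted p = 0.0489), replicate 4 of KO on SFA (0.0415) or replicate 4 of WT on n6 (0.0107). For n6 against SFA and n3 against SFA, edgeR called 0 members each, against 0.898% and 0.819% of all genes, with 3 each at an unadjusted p under 0.05. DESeq2 called TAZ in the first (0.22, adjusted p = 0.0481) and PISD (0.19, adjusted p = 0.0364) and PTDSS2 (0.20, adjusted p = 0.047) in the second.

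Genes around the pathway were read from lists chosen by function. Values of single genes are from the counts, relative to other genes, and the list's calls in TPM stand beside them. The shares of 27.8% and 29.8% of all genes belong to the counts only. Over all genes, most calls in TPM were lower, as given above with the numbers relative to the median gene. Among 11 tested genes that supply phosphatidic acid, the substrate of CDS1 and CDS2, 7 were called higher and 2 lower in KO on average (all genes 27.8% and 29.8%), with a median of 0.21. AGPAT2, which makes phosphatidic acid from lysophosphatidic acid, rose by 1.25 ± 0.044 on average and by 1.12, 1.64 and 1.00 on SFA, n6 and n3, and these differed between diets (interaction adjusted p = 0.00257). It went from 304 ± 14.9 to 951 ± 63.6 CPM on n6 (SD, n = 4). The glycerol-phosphate acyltransferases GPAM and GPAT3 rose by 0.58 ± 0.0285 and 0.54 ± 0.051, and AGPAT1, a second lysophosphatidic acid acyltransferase, by 0.21 ± 0.0231. In TPM the list split into 4 higher and 5 lower, and relative to the median gene into 7 and 2.

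The CDP-choline and CDP-ethanolamine routes make phosphatidylcholine and phosphatidylethanolamine, the substrates of PTDSS1 and PTDSS2. Of 10 tested genes 6 were called higher and 2 lower (all genes 27.8% and 29.8%), with a median of 0.11 (4 and 4 of 9 in TPM, 5 and 1 relative to the median gene). PCYT2, the rate-limiting enzyme for phosphatidylethanolamine, rose by 0.72 ± 0.029, the cholinephosphotransferase CHPT1 by 0.54 ± 0.0354, the methyltransferase PEMT by 0.54 ± 0.0504 and the ethanolamine kinase ETNK1 by 0.29 ± 0.0288. PCYT1A, which limits phosphatidylcholine synthesis, rose on SFA (0.18) and n3 (0.22) and stood at 0.02 on n6 (interaction adjusted p = 0.0235).

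Serine and inositol supply went both ways: of 11 genes 2 were called higher and 4 lower on average (all genes 27.8% and 29.8%), with a median of -0.00. PHGDH, the first enzyme of serine synthesis, fell by 0.91 on SFA, 0.98 on n6 and 0.33 on n3 (interaction adjusted p = 0.00936), while PSPH, the last, rose by 0.38 ± 0.0317 on average. The serine carrier SLC1A4 fell by 0.40 (SE 0.0347) and the inositol carrier SLC5A3 by 0.39 (SE 0.0466). In TPM 1 gene of this list was higher and 9 lower.

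Of 15 genes that move or expose phosphatidylserine, 6 were called higher and 8 lower, where 27.8% and 29.8% of all genes were, with a median of -0.07 (1 and 11 of 14 in TPM). Of the flippase genes, ATP8A1 rose by 0.33 ± 0.0319 and ATP11A fell by 0.35 (SE 0.0269). GRAMD1B, a sterol carrier that binds phosphatidylserine, rose by 0.87 ± 0.066, and OSBPL8, which exchanges phosphatidylserine for phosphoinositide, fell by 0.29 on SFA and 0.55 on n6 and stood at -0.16 on n3 (interaction adjusted p = 0.0499). Among 17 tested genes of phosphatidylinositol transfer and phosphorylation, 8 were called higher and 4 lower against the same shares (1 and 9 of 16 in TPM), with a median of 0.08. PIK3CB, a class I kinase subunit, rose by 0.60 ± 0.0527, PITPNM2 by 0.24 ± 0.0265 and PI4KA by 0.18 ± 0.0178, and the transfer protein PITPNA fell by 0.15 (SE 0.0224). PI4K2A differed between diets (interaction adjusted p = 0.0363), with 0.10 on SFA, -0.08 on n6, both uncalled, and a rise of 0.22 on n3.

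Of 18 genes of cardiolipin transport and turnover, 12 were called higher in KO and 2 lower in the counts, where 27.8% and 29.8% of all genes were, with a median of 0.20 (6 and 5 of 16 in TPM, 11 and 2 relative to the median gene). PRELID3B, which carries phosphatidylserine between mitochondrial membranes, rose by 0.38 ± 0.0278, the prohibitin partner DNAJC19 by 0.41 ± 0.037, STARD7, a phosphatidylcholine carrier, by 0.32 ± 0.0251, and the prohibitin PHB2 by 0.32 ± 0.0281. PRELID1, the phosphatidic acid carrier, differed between diets (interaction adjusted p = 0.0391), with a fall of 0.13 on n6 and uncalled values of -0.01 on SFA and 0.09 on n3. Beside them, 15 genes of other mitochondrial functions were read as a reference, and 15 of 15 were called higher on average against 27.8% of all genes, with a median of 0.29 (10 higher and 3 lower in TPM, 15 and 0 relative to the median gene). Citrate synthase (CS) rose by 0.82 ± 0.0306, from 529 ± 37.7 to 944 ± 64.1 CPM on SFA, the chaperone HSPA9 and the ADP/ATP carrier SLC25A5 by 0.47 each and the outer membrane channel VDAC1 by 0.35. The mitochondrial reference thus moved with PGS1, PTPMT1 and CRLS1, and its part in their difference was not tested. On n6 against SFA 10 of these 15 were called lower in WT (13.1% of all genes) and 10 in KO (13.8%), and on n3 against n6 in KO 15 of 15 were called higher (15.8%).

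Among 8 lysophospholipid acyltransferases, the family of LPCAT3, 1 was called higher and 4 lower, LPCAT3 included (all genes 27.8% and 29.8%), with a median of -0.11. MBOAT7, which reacylates phosphatidylinositol, rose by 0.11 ± 0.0263 on average and LPCAT2 fell by 0.39 (SE 0.102). LPGAT1 fell by 0.57 on n6 (SE 0.0657, adjusted p = 2.82e-07) and stood at -0.01 on SFA and on n3 (interaction adjusted p = 0.00206). In TPM 3 of 6 genes of this family were called lower, and relative to the median gene 3 higher and 1 lower.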

How the data were processed

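Bulk poly-A RNA-seq of inguinal white adipose tissue from WT and KO mice on 3 high-fat diets (4 libraries per group, 24 in all) was analysed from 2 deposited tables of 35727 genes. The authors deposited estimated counts per gene, which were rounded here, and TPM. The submitters' processing notes name fastp 0.23.2, Salmon and the build mm10; for the Salmon version, options and annotation, not given in the sources used here, no statement is made. Per the labels' protocols, RNA came from TRIzol and columns, with paired-end sequencing. The 2 tables name genes differently, and 34410 symbols were matched to TPM through GENCODE M21 gene names, with no match for PTPMT1.

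Genes were kept with filterByExpr (minimum count 10, minimum total 15; 15259 genes, 99.98% of counts). edgeR 4.0.16 (R 4.3.3) fitted 1 coefficient per group over all 24 libraries with TMM scaling, robust quasi-likelihood and 18 residual degrees of freedom. The interaction is 1 F test, and p-values were adjusted by Benjamini-Hochberg over all tested genes at 0.05. TPM were tested with limma 3.58.1 on log2(TPM + 1) after a filter at 1 TPM, a scale that understates changes of low genes. CDS1 and PTDSS1 shares were tested by exact two-sided permutation. Alternatives were RLE scaling, no filter, DESeq2 1.42.0, only the groups compared, a replicate block, TPM, no 100 most abundant genes, marker covariates, fits without marker-high libraries (mean log2 CPM above 2 for B cell or 4 for muscle markers) and each library left out. TPM relative to the median gene of each library was added after seeing the data.

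Members and lists were chosen with earlier results of these data known. All 10 members are named, and from each list at most 4 genes with the smallest average p and the smallest called interaction p. Promoters are RefSeq entries (GRCm38.p6), found for 8 of 10 members (11 windows); positions after the start are not shown.

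Libraries sharing a replicate number were not paired, since no comparison had correlations above 0.1 for all 4 pairs. No libraries agreed within sampling noise (chi-square per gene at least 7.199 between replicates). Tested on simulated data for KO against WT on SFA (15259 genes), the fit called 58 of 67 changes of 1.5-fold, 66 of 67 of 2-fold, 66 of 66 of 4-fold and 14 of 15059 unchanged genes. The simulation changed 200 genes, each by at least 1.5-fold. It does not cover differences as small as those of the members, or a change in as many genes as were called here. The values of a gene of the pathway lists that the naming rule selects are not reported here.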

Additional observations from a re-analysis of the deposited data

Results flagged for a closer look

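Each of the 10 members was checked in each of the 6 groups for a library far from the other 3 (a gap to its neighbour above Dixon's critical share of the group's range), 60 checks in all, of which chance flags about 1 in 20. There were 6 such values. Replicate 4 of KO on n3 had 149.6 CPM of CDS2 where the others had 135 to 137, and 47.2 CPM of PISD where the others had 52.6 to 53.0. Replicate 3 of KO on n3 had 49.0 CPM of PGS1 where the others had 42.2 to 43.3. Replicate 1 of KO on n6 had 23.5 CPM of CDS1 where the others had 26.02 to 26.3. Replicate 1 of WT on n6 had 20.4 CPM of PTPMT1 where the others had 18.1 to 18.3. Replicate 4 of WT on SFA had 51.8 CPM of PISD where the others had 47.1 to 47.8.

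The genotype difference of CDS2 was called different between n3 and n6, a contrast that called 9.1% of all genes. It was lower on n3 than on n6 by a log2 difference of -0.19 (edgeR adjusted p = 0.0412), which moved to -0.23 without replicate 4 of KO on n3. The call held in 13 of 24 fits with 1 library left out (adjusted p between 0.00778 and 0.0855), and it was lost with a replicate block (0.0547), in TPM (0.0868), without the marker-high libraries (0.0947) and with marker covariates (0.188). The F test over all 3 diets did not call CDS2 (adjusted p = 0.0902), and pairs of diets were planned only for members that it called.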

How the results depend on the processing

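Of all settings, TPM moved the members most. In the 3 TPM fits (pseudocount 1, pseudocount 0.1, and 1 without the filter on low values), these values took the other sign, the second of a pair being that for 0.1. Averaged over diets they were PGS1 (-0.039, -0.040), PTDSS1 (-0.053, -0.054), PISD (-0.16), PTDSS2 (-0.073, -0.076) and CDIPT (-0.12). For KO on SFA it was CDIPT (-0.11), and on n6 TAZ (-0.054, -0.055), PGS1 (-0.046, -0.048), PTDSS1 (-0.037, -0.038), PISD (-0.12) and CDIPT (-0.14, -0.15). On n3 they were PGS1 (-0.036, -0.037), PTDSS1 (-0.057, -0.059), PISD (-0.15), PTDSS2 (-0.047, -0.049), CDS1 (-0.031, -0.033) and CDIPT (-0.11). For n6 against SFA in WT they were PTDSS1 (0.029) and PISD (0.073, 0.074), and for n3 against n6 in KO CDS1 (-0.21, -0.23). Sign differences between 2 uncalled values, 100 in these settings and 49 with a library left out, were not counted, and no called member changed sign with a library left out.

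Members called in those fits numbered 5, 5 and 4 for KO against WT on SFA, 5 in each on n6, and 5, 5 and 4 on n3. They numbered 2 in each for n6 against SFA in WT, 1 in each for n3 against SFA in KO, 3 in each for n3 against n6 in KO, and 0 for n3 against n6 in WT without the filter. Relative to the median gene they were 5 on n6, 1 for n3 against SFA in KO, 2 for n3 against n6 in KO and 1 for the interaction. On SFA there were 5 with RLE scaling, 5 with DESeq2 and 4 without the 100 most abundant genes. DESeq2 called 1 for n3 against SFA in KO and 3 in the interaction. For n3 against n6, fitting only the groups compared gave 2 in WT and 2 in KO, marker covariates 2 and 2, and leaving out marker-high libraries 2 in KO. The cause of these moves was not tested. Calls over all genes moved too, as given below for part of these fits. The counts here and those with each library left out show dependence on the processing and are not read as results about the members.

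With each library left out, members called ranged from 8 to 9 on average, 2 to 6 on SFA, 5 to 9 on n6, 7 to 8 on n3, 4 to 8 and 2 to 5 for n6 against SFA in WT and KO, 0 to 0 and 0 to 2 for n3 against SFA, 1 to 2 and 3 to 7 for n3 against n6, and 0 to 6 for the interaction. The CDS1 share moved between 9.84 and 11.3 points for SFA, 7.70 and 8.65 for n6, and 6.84 and 8.88 for n3. The PTDSS1 share moved between 1.72 and 3.36 points for SFA, -2.06 and -0.289 for n6, and -1.40 and 1.21 for n3.

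The replicate block left the members called at 8 on average, 2 on SFA, 8 on n6, 8 on n3 and 8 for n6 against SFA in WT. It lost PGS1 for n6 against SFA in KO (2 in place of 3, adjusted p = 0.0542) and CDS2 for the genotype difference on n3 minus on n6 (adjusted p = 0.0547).

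Over all genes, the interaction called 983 by edgeR, 1933 by DESeq2, 590 in TPM with no filter, 311 without marker-high libraries and 243 with marker covariates. Counts for n6 against SFA in WT went from 3776 to 5960 in TPM, in KO from 3474 to 1729 without marker-high libraries and 2234 with covariates. Those for n3 against n6 in KO went from 3972 to 1724 with only the groups compared, 1377 and 754, and for n3 against SFA from 22 to 316 in WT and 223 to 588 in KO with DESeq2. With a library left out, the interaction called 501 to 2525 genes, and n3 against SFA 1 to 179 in WT and 80 to 859 in KO. Every member had at least 18.1 CPM in every library at totals of at least 43.6 M counts.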
